A study of Homo sapiens with 6 samples.

Results

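The genes described here are 10 genes of bone morphogenetic protein (BMP) and transforming growth factor β (TGFβ) signalling in a lenvatinib-resistant liver cancer cell line and its parental line. They were the rows of the gene table whose symbol was ID1, ID2, ID3, SMAD6, SMAD7, BMP2, BMP4, HAMP, TGFB1 or TGFB2, and all 10 were found among 19974 annotated genes. Huh7 is a human hepatocellular carcinoma cell line, and lenvatinib is an inhibitor of several receptor tyrosine kinases. Huh7 P, the parental line, was untreated (month 0), with 3 RNA samples. Huh7 LR was derived from it by continuous lenvatinib raised from 1 to 20 μM over 10 months, and also had 3 samples. Huh7 LR was a single derived line that was kept in 20 μM lenvatinib. Selection, continued exposure and the 10 months in culture therefore cannot be told apart. Whether the drug was present at harvest was not stated for the RNA samples.

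BMP and TGFβ ligands bind pairs of serine/threonine kinase receptors, which phosphorylate SMAD proteins that enter the nucleus with SMAD4 and regulate transcription. BMP receptors act mainly through SMAD1, SMAD5 and SMAD9, and among the genes they induce are the ID genes, whose products bind E proteins and block their binding to DNA, and the inhibitory SMADs, SMAD6 and SMAD7. In hepatocytes the same route switches on HAMP, which encodes hepcidin, the hormone that limits iron export by ferroportin.

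Total counts per library were 62738937 to 71427573, so that 3 counts corresponded to 0.0418 to 0.0486 CPM (counts scaled for library size). Hepatocyte markers such as ALB and APOA1 summed to 39191 to 48972 CPM in Huh7 P and 51200 to 53202 CPM in Huh7 LR. Of the 7 markers, 4 rose, where 23.3% of all features did. AFP was at 22997 CPM in Huh7 P and 19620 CPM in Huh7 LR and did not pass (edgeR adjusted p = 0.0923), nor did HNF4A and SERPINA1. Summed stellate and fibroblast markers were at 2.27 to 2.43 CPM in Huh7 P and 5.12 to 8.22 CPM in Huh7 LR, with COL1A1 and PDGFRB higher in Huh7 LR and DCN at 0. Summed endothelial markers were at 39.1 to 47.7 and 65.3 to 71.4 CPM, mostly PECAM1, with CDH5, KDR and TEK at 0. Summed leukocyte markers were at 129.6 to 139.8 and 55.8 to 62.9 CPM, mostly CD68 and LYZ, with TYROBP and HLA-DRA at 0. The part of these other-cell markers in the results below was not tested.

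The sequences before HAMP, ID1, ID3 and SMAD6 were picked, after the matches were seen, as the hepcidin gene, both ID genes of widest spread and the gene with a joined site, and are shown because SMAD proteins bind GTCT (read as AGAC on the other strand), and BMP-responsive elements contain GGCGCC. TTCNNNGAA is the form bound by STAT proteins, which carry interleukin 6 signals to hepcidin. Each line gives the 250 bases before the RefSeq start of transcription (GRCh38.p14), 5′ to 3′ on the strand of the gene, with matches to these motifs on both strands in capitals. Gene positions in later paragraphs are from GENCODE, whose gene ends differ from the RefSeq starts. The HAMP and ID3 windows lie inside those positions. They are HAMP at chr19:35282278-35282527 (+), ID1 at chr20:31605039-31605288 (+), ID3 at chr1:23559502-23559751 (-) and SMAD6 at chr15:66701986-66702235 (+).
HAMP: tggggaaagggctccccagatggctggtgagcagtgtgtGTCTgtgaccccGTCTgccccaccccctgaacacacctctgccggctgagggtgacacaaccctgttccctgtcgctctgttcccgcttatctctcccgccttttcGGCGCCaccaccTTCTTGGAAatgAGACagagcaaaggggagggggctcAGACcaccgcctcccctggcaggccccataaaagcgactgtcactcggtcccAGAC
ID1: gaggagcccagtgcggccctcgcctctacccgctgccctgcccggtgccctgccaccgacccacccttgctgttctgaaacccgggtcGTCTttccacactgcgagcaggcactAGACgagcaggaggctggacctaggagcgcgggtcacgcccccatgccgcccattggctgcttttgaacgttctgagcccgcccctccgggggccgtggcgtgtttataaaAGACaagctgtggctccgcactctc
ID3: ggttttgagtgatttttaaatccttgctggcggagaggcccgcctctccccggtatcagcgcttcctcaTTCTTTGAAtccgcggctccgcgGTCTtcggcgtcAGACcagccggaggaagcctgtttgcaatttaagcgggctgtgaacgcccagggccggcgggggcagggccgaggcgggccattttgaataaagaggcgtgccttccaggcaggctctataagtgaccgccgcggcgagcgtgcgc
SMAD6: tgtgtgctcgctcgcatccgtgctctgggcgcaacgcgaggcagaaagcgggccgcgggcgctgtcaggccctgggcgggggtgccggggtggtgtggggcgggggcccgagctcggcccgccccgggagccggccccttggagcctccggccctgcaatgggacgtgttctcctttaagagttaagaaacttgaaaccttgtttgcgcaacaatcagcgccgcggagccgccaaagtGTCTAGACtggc

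The HAMP window held GGCGCC at 105 to 100 bases before the start and TTCTTGGAA at 93 to 85 bases before it. A BMP4 window, not shown, held GGCGCC at 232 to 227 bases before its start, and 2 windows of SMAD7 held 4 and 5 matches to GTCT or AGAC. The ID3 window held TTCTTTGAA at 181 to 173 bases before the start. In the SMAD6 window GTCT and AGAC were joined into the palindrome GTCTAGAC, at 12 to 5 bases before the start. Among 35116 windows of the same length, GGCGCC was found in 16.4%, GTCT or AGAC in 77.5%, TTCNNNGAA in 6.57% and GTCTAGAC in 0.182%. RefSeq windows were found for 9 of the 10 genes, 13 windows in all, and BMP2 had no entry. These matches describe letters and were not measured as binding.

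Which genes of this signalling family differed between Huh7 LR and Huh7 P was then asked with edgeR's quasi-likelihood test, fitted to 17531 features and adjusted over all of them by the Benjamini-Hochberg method. A gene is said to have risen or fallen at an adjusted p under 0.05. ID2, ID3, SMAD7, BMP2 and TGFB2 rose in Huh7 LR, BMP4 and TGFB1 fell, and ID1 and SMAD6 did not pass. Thus 5 of the 9 genes tested rose and 2 fell, where 23.3% of all features rose and 22.4% fell (45.7% in either direction). HAMP was not tested, since it had no count in any library. None (0 of 9) passed an adjusted p under 0.001 together with a change above 2-fold in edgeR or DESeq2, a level passed by 4.43% of all features upwards and 1.78% downwards (6.21% in all), while 7 of the 9 passed an unadjusted p under 0.05 in both tools. That unadjusted threshold was passed by 52.7% of 17531 features in edgeR and by 40.3% of 22978 features, low counts included, in DESeq2. The median log2 fold change of the 9 was 0.37, against 0.0046 over all features. The libraries of the lines did not overlap for 7 of the 9 genes, which was the case for 55.9% of all features. In a bulk sample, a change in the share of cells that express a gene and a change in RNA per cell cannot be told apart.

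**Figure D1:**
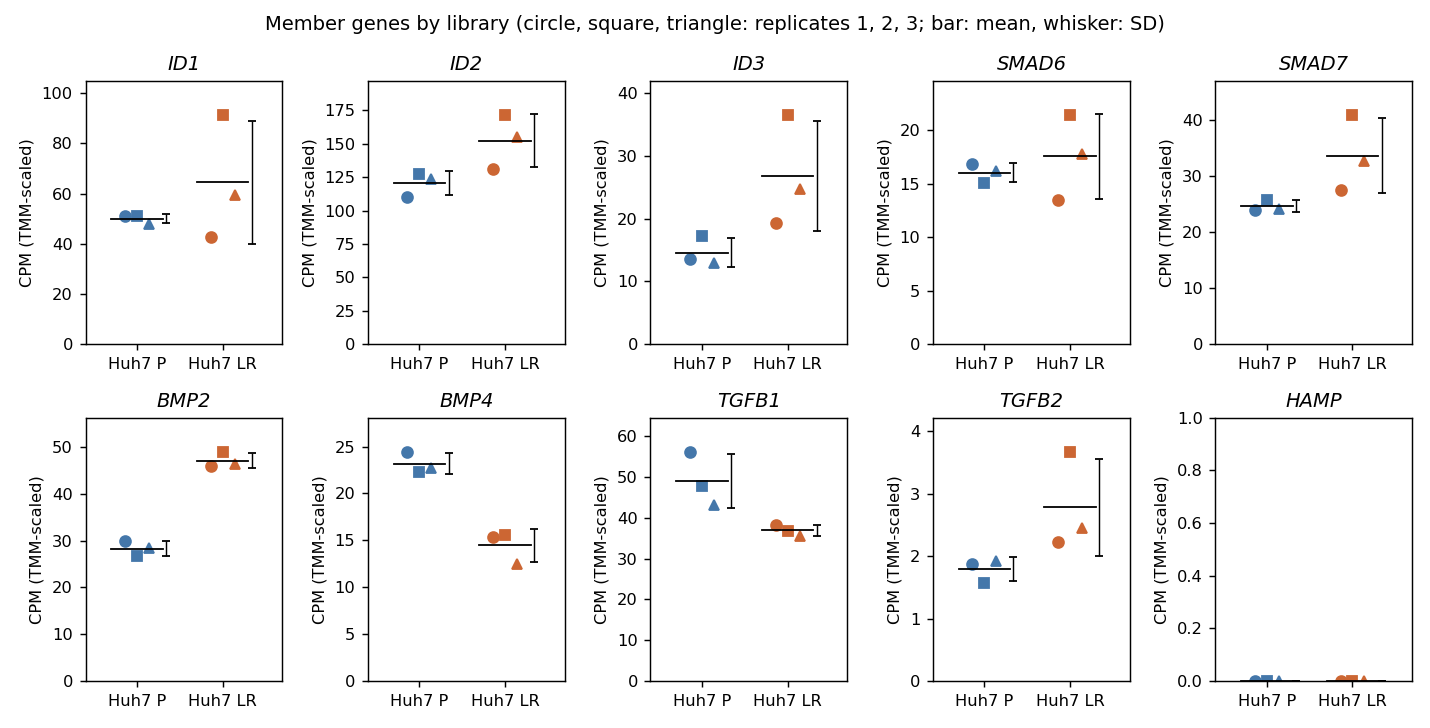
TMM-scaled CPM of the 10 genes in each of the 3 Huh7 P and 3 Huh7 LR libraries (points; bar, mean; whisker, SD). BMP2 lay at 26.6 to 29.8 CPM in Huh7 P and 46.1 to 48.9 CPM in Huh7 LR, whereas the ID1 points overlapped.

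Levels are compared between genes only as FPKM, which the authors scaled for gene length. In Huh7 P, ID2 had the highest mean (63.4 ± 4.93 FPKM, SD, n = 3), followed by ID1 (44.0 ± 2.17), TGFB1 (16.5 ± 2.33), BMP4 (11.8 ± 0.644), ID3 (10.7 ± 1.69), BMP2 (7.22 ± 0.451), SMAD7 (5.27 ± 0.189), SMAD6 (3.98 ± 0.201) and TGFB2 (0.326 ± 0.0376). BMP4 and ID3 overlapped in Huh7 P, and the other neighbours in this order did not. In Huh7 LR the order was ID2 (93.2 ± 23.3 FPKM), ID1 (58.6 ± 21.7), ID3 (20.0 ± 6.40), TGFB1 (12.7 ± 0.514), BMP2 (12.2 ± 0.324), BMP4 (7.53 ± 0.953), SMAD7 (7.28 ± 1.30), SMAD6 (4.37 ± 0.984) and TGFB2 (0.517 ± 0.144). There ID2 overlapped ID1, TGFB1 overlapped BMP2, and BMP4 overlapped SMAD7. HAMP was listed at 0 FPKM in both lines.

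Among the ligands, BMP2 and BMP4 moved in opposite directions. BMP2 (ENSG00000125845, chr20:6767664-6780280, + strand, GRCh38) encodes a secreted BMP ligand that in the liver is made largely by sinusoidal endothelial cells and stimulates hepcidin. It was at 29.8, 26.6 and 28.4 CPM in Huh7 P replicates 1 to 3, and at 46.1, 48.9 and 46.4 CPM in Huh7 LR replicates 1 to 3. The groups did not overlap, Huh7 LR being the higher, and the means were 28.3 ± 1.60 and 47.1 ± 1.58 CPM (SD, n = 3 each). BMP2 rose 1.66-fold, a log2 fold change of 0.73 (SE 0.07, edgeR adjusted p = 2.08e-05), with a log2 fold change between 0.69 and 0.77 in all alternative analyses. The endothelial markers PECAM1 and VWF were also higher in Huh7 LR, VWF with 0, 0 and 8 counts in Huh7 P against 19, 26 and 21 counts in Huh7 LR, whereas CDH5, KDR and TEK were at 0 in every library. STAB2, the sinusoidal endothelial marker of the list, was at 0.301 CPM in Huh7 P and 0.257 CPM in Huh7 LR and did not pass (edgeR adjusted p = 0.686).

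BMP4 (ENSG00000125378, chr14:53949736-53958761, - strand) encodes a related ligand of the same receptors. It was at 24.4, 22.3 and 22.7 CPM in Huh7 P and at 15.4, 15.6 and 12.5 CPM in Huh7 LR. All Huh7 LR libraries lay below all Huh7 P libraries. The mean fell from 23.2 ± 1.11 to 14.5 ± 1.74 CPM (SD, n = 3 each), which was 1.60-fold lower, with a log2 fold change of -0.68 (SE 0.10, edgeR adjusted p = 3.16e-04). In FPKM, the ratio of BMP2 to BMP4 was 0.614, 0.602 and 0.621 in Huh7 P replicates 1 to 3, compared with 1.505, 1.55 and 1.87 in the Huh7 LR replicates. BMP4 was thus the more abundant transcript of the pair in every Huh7 P library and BMP2 in every Huh7 LR library. The ratio was not tested.

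TGFB1 (ENSG00000105329, chr19:41301587-41353911, - strand), which encodes the most widely expressed TGFβ ligand, was at 56.2, 47.7 and 43.3 CPM in Huh7 P and at 38.3, 36.9 and 35.6 CPM in Huh7 LR. The groups did not overlap, although the Huh7 P libraries were more spread. The mean fell from 49.1 ± 6.56 to 37.0 ± 1.32 CPM (SD, n = 3 each), with a log2 fold change of -0.41 (SE 0.09, edgeR adjusted p = 0.00474). Of its 3238 exon bases, 215 (6.64%) overlapped HNRNPUL1 on the opposite strand, which fell from 480 to 307 CPM. Without strand in the counting, reads of these bases cannot be assigned to either gene.

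TGFB2 (ENSG00000092969, chr1:218346235-218444619, + strand) encodes a second TGFβ ligand and was the least abundant of the genes tested. It was at 1.87, 1.57 and 1.93 CPM in Huh7 P and at 2.22, 3.67 and 2.45 CPM in Huh7 LR, without overlap. The log2 fold change was 0.64 (SE 0.22, edgeR adjusted p = 0.0323), a 1.55-fold rise. This call was lost when Huh7 LR replicate 2 was left out (log2 fold change 0.39, edgeR adjusted p = 0.124), and also without any 1 of the Huh7 P libraries (adjusted p = 0.0693, 0.108 and 0.0600 without replicates 1, 2 and 3), where the log2 fold change was still 0.67, 0.55 and 0.69.

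**Figure D2:**
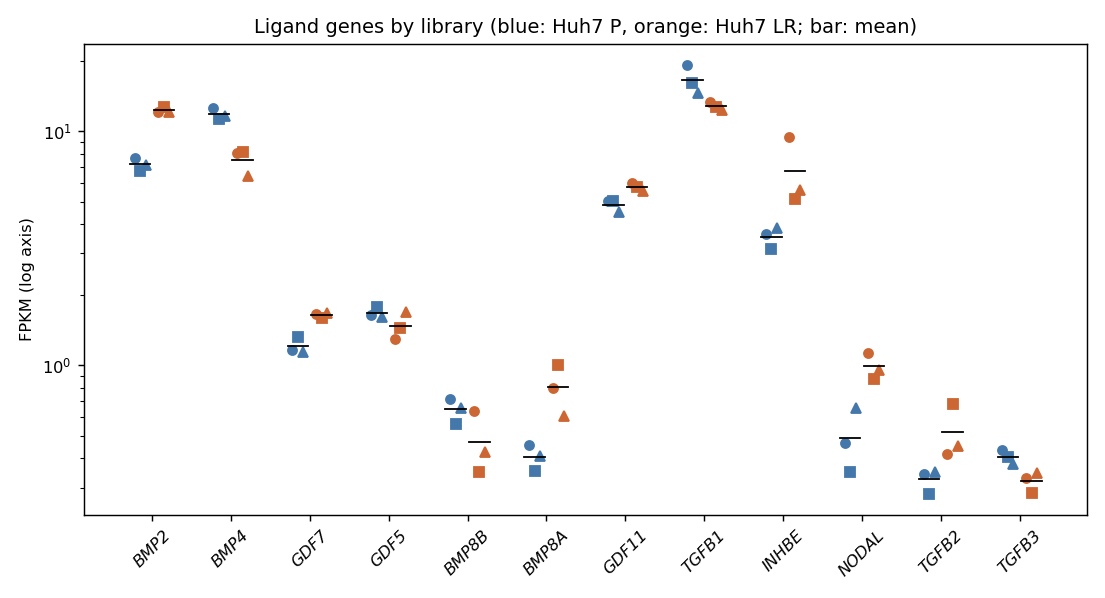
FPKM (log axis) of ligand genes in the 3 Huh7 P (blue) and 3 Huh7 LR (orange) libraries, with a point per library and a bar at the mean. The BMP2 points lie below the BMP4 points in Huh7 P (BMP2 to BMP4 ratio 0.602 to 0.621) and above them in Huh7 LR (1.505 to 1.87).

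The other ligands were mostly low or undetected. Of 14 BMP ligand genes, 6 were tested, of which 3 rose (BMP2, BMP8A and GDF7) and 1 fell (BMP4), with a median log2 fold change of 0.12. BMP6, the other main iron-responsive inducer of hepcidin, was among the 8 that did not pass the filter. BMP8A rose from 0.755 to 1.47 CPM (edgeR adjusted p = 0.0103), but its near-identical paralog BMP8B had a log2 fold change of -0.49 (edgeR adjusted p = 0.0885), so the split of reads between them is uncertain. Of 11 TGFβ and activin ligand genes, 8 were tested, 4 rose and 1 fell. Over all features 23.3% rose and 22.4% fell, shares that stand beside each list counted here and below. INHBE, a hepatocyte activin subunit gene, rose from 9.17 ± 0.935 to 17.3 ± 6.03 CPM (SD, n = 3 each, edgeR adjusted p = 0.00334), and its Huh7 LR replicate 1 was the highest library at 24.2 CPM, without which its log2 fold change went from 0.91 to 0.59 (edgeR adjusted p = 0.00239). NODAL rose from 0.898 to 1.76 CPM (edgeR adjusted p = 0.00969).

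Of 12 receptor genes, 10 were tested, 4 rose and 0 fell by edgeR's test at an adjusted p under 0.05, with a median log2 fold change of 0.15. ACVR1, a type I BMP receptor used in hepatocytes, rose from between 33.8 and 34.4 to between 45.9 and 51.6 CPM (3 libraries each, edgeR adjusted p = 1.58e-04), and is named here after its values were seen. The type II receptor gene BMPR2 was at 94.7 CPM in Huh7 P and 93.2 CPM in Huh7 LR (edgeR adjusted p = 0.864). AMHR2, the receptor for anti-Müllerian hormone, rose from 0.0843 to 0.516 CPM (edgeR adjusted p = 0.0122), a log2 fold change of 2.63, and had 2.17 without Huh7 LR replicate 1, where it did not pass (edgeR adjusted p = 0.0538). Its counts in Huh7 P were only 0, 9 and 7. The AMHR2 log2 fold change was 2.01 without Huh7 P replicate 1 and 3.27 without Huh7 P replicate 2. None of the 6 co-receptor genes tested passed.

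Among the 6 SMAD effector genes, SMAD3, SMAD4 and SMAD9 rose, SMAD2 fell, and SMAD1 and SMAD5 did not pass. SMAD9, which encodes the least abundant BMP effector here, was at 1.41, 0.616 and 1.25 CPM in Huh7 P and at 3.48, 3.30 and 4.12 CPM in Huh7 LR. It rose 3.31-fold (log2 fold change 1.73, SE 0.27, edgeR adjusted p = 3.52e-04). SMAD3, a TGFβ effector, rose from 55.9 ± 1.33 to 84.5 ± 2.51 CPM (SD, n = 3 each, edgeR adjusted p = 3.06e-05). SMAD2, the other TGFβ effector, fell from 94.2 ± 3.83 to 74.4 ± 3.20 CPM (SD, n = 3 each, edgeR adjusted p = 0.00186), a log2 fold change of -0.34. It had -0.17 with GC-corrected offsets (edgeR adjusted p = 0.0458) and -0.15 in limma on log2(FPKM + 0.1), where it did not pass (adjusted p = 0.211). SMAD4, the shared partner, rose from 90.4 to 113.8 CPM (edgeR adjusted p = 0.00191). SMAD1 and SMAD5, the main BMP effectors, had log2 fold changes of 0.14 and 0.08 (edgeR adjusted p = 0.327 and 0.689). SMAD5 turned on single libraries, with a log2 fold change of 0.28 without Huh7 LR replicate 2 (edgeR adjusted p = 0.00952) and -0.088 without replicate 1. With GC-corrected offsets both passed as higher, SMAD1 with a log2 fold change of 0.35 (edgeR adjusted p = 0.0258) and SMAD5 with 0.33 (edgeR adjusted p = 0.0478).

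Extracellular antagonists, which bind ligands outside the cell, moved in both directions. Of 14 such genes, 6 were tested, 2 rose and 2 fell. CHRD, which encodes the BMP-binding protein chordin, rose from 1.38 ± 0.131 to 4.11 ± 0.636 CPM (SD, n = 3 each, edgeR adjusted p = 4.31e-05), and 5.45% of its exon bases overlap THPO on the opposite strand. SOSTDC1 rose from 0.0973 to 0.549 CPM (edgeR adjusted p = 0.00153), from 5 to 9 counts a library in Huh7 P. FST, which encodes the activin-binding protein follistatin, fell from 6.94 ± 0.569 to 3.33 ± 0.452 CPM (SD, n = 3 each, edgeR adjusted p = 1.50e-04). NBL1 fell from 5.50 to 2.33 CPM (edgeR adjusted p = 3.82e-05), and it shares 3.64% of its exon bases with MINOS1 and 15.4% with MINOS1-NBL1 on its strand. The summed counts, most of them from MINOS1 (25.1 CPM in Huh7 P), had a log2 fold change of -0.34 (edgeR adjusted p = 0.0123).

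The inhibitory SMADs differed from each other in whether they passed. SMAD7 (ENSG00000101665, chr18:48919853-48952052, - strand), which blocks both BMP and TGFβ receptors, was at 23.9, 25.8 and 24.1 CPM in Huh7 P and at 27.5, 40.8 and 32.7 CPM in Huh7 LR. No Huh7 LR library fell within the Huh7 P range. It rose 1.37-fold (log2 fold change 0.45, SE 0.12, edgeR adjusted p = 0.0119), from 24.6 ± 1.05 to 33.7 ± 6.73 CPM (SD, n = 3 each). Without Huh7 LR replicate 2 the log2 fold change was 0.30 (edgeR adjusted p = 0.0234). SMAD6 (ENSG00000137834, chr15:66702228-66782848, + strand), which acts more on BMP signals, was at 16.9, 15.1 and 16.2 CPM in Huh7 P and at 13.5, 21.4 and 17.8 CPM in Huh7 LR. Its groups overlapped, with 1 Huh7 LR library below and 2 above the Huh7 P range. The log2 fold change was 0.13 (95% interval -0.19 to 0.45, edgeR adjusted p = 0.494), and it was -0.030 without Huh7 LR replicate 2. The difference between SMAD6 and SMAD7 was not tested. Of the 8 intracellular inhibitor genes tested, 2 rose (SMAD7 and TGIF1), and the SMURF1, SMURF2, SKI and SKIL genes did not pass.

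The ID genes, which encode helix-loop-helix proteins without a DNA-binding region, included the pair with the widest spread in Huh7 LR on the log2 scale among the 9 tested, ID1 and ID3. ID1 (ENSG00000125968, chr20:31605283-31606515, + strand) was at 51.1, 51.0 and 47.8 CPM in Huh7 P and at 42.8, 91.1 and 59.4 CPM in Huh7 LR. Its lowest Huh7 LR library lay under the Huh7 P range and the others above it. The means were 50.0 ± 1.87 and 64.4 ± 24.5 CPM (SD, n = 3 each), with a log2 fold change of 0.37 (95% interval -0.08 to 0.81, edgeR adjusted p = 0.165). The log2 fold change was 0.039 without Huh7 LR replicate 2 (edgeR adjusted p = 0.810) and 0.59 without Huh7 LR replicate 1 (edgeR adjusted p = 0.00510), so that the call on ID1 turned on a single library. The SD of ID1 on the log2 scale was 0.55 in Huh7 LR, where the median gene had 0.119.

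ID3 (ENSG00000117318, chr1:23557918-23559794, - strand) showed the largest rise of the 9 genes tested in the edgeR fit above. It was at 13.6, 17.2 and 12.9 CPM in Huh7 P and at 19.2, 36.4 and 24.7 CPM in Huh7 LR, without overlap. It rose 1.84-fold, from 14.6 ± 2.29 to 26.8 ± 8.78 CPM (SD, n = 3 each), with a log2 fold change of 0.88 (SE 0.20, edgeR adjusted p = 0.00395). Without Huh7 LR replicate 2 the log2 fold change was 0.60 (edgeR adjusted p = 0.00684), below the 0.72 of BMP2 in that fit. With GC-corrected offsets ID3 had 0.80, below the 0.87 of TGFB2. In FPKM, the ratio of ID3 to ID1 was 0.221, 0.281 and 0.226 in Huh7 P, compared with 0.368, 0.329 and 0.341 in Huh7 LR. ID3 was therefore higher relative to ID1 in each Huh7 LR library, a ratio that was not tested.

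ID2 (ENSG00000115738, chr2:8678845-8684453, + strand) was at 110.1, 127 and 124 CPM in Huh7 P and at 131, 171 and 155 CPM in Huh7 LR. The groups were separated by a narrow gap. The mean rose from 120.3 ± 8.97 to 152 ± 20.1 CPM (SD, n = 3 each), with a log2 fold change of 0.34 (SE 0.10, edgeR adjusted p = 0.0156), and the call was lost without Huh7 P replicate 1 (log2 fold change 0.28, edgeR adjusted p = 0.0741) or Huh7 LR replicate 3 (log2 fold change 0.33, edgeR adjusted p = 0.0526). From the mean FPKM the log2 ratio of ID2 was 0.56, further from its CPM value (by 0.22) than for any other gene of the set. ID4, the remaining family member, was low, at 0.962, 1.36 and 1.07 CPM in Huh7 P and at 2.68, 4.40 and 3.44 CPM in Huh7 LR. ID4 rose 3.11-fold (log2 fold change 1.64, SE 0.23, edgeR adjusted p = 1.67e-04).

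**Figure D3:**
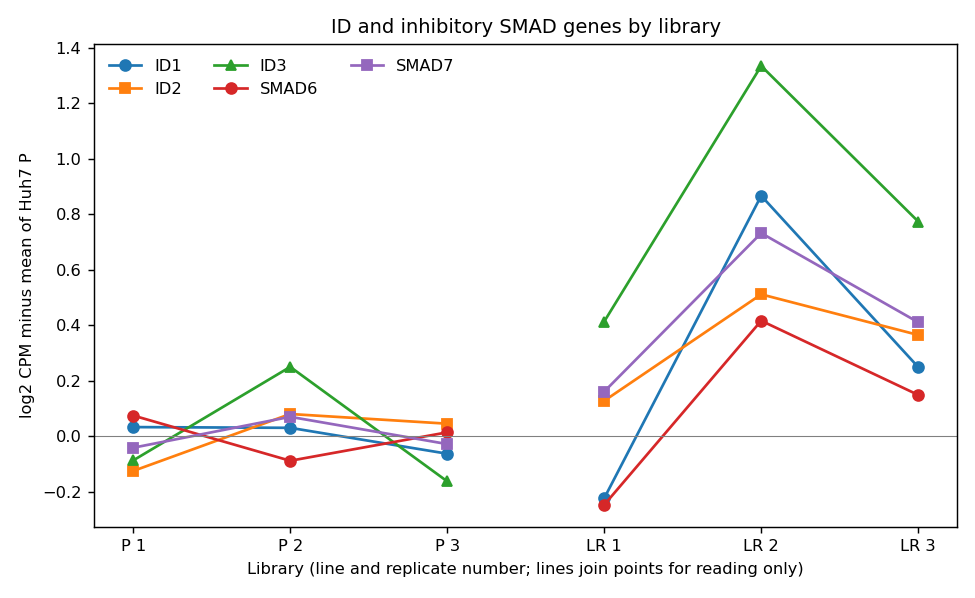
Log2 CPM of ID1, ID2, ID3, SMAD6 and SMAD7 in each library, relative to the mean of the 3 Huh7 P libraries of the same gene. In all 5 genes Huh7 LR replicate 2 is the highest and replicate 1 the lowest of the Huh7 LR libraries, from -0.22 to 0.87 for ID1 and from 0.41 to 1.33 for ID3.

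The Huh7 LR libraries were ordered alike across these genes. Huh7 LR replicate 2 was the highest of the 3 for 8 of the 9 genes tested, TGFB1 being the exception, and for 38% of all features. In 7 of the 9 the order was replicate 2, then 3, then 1, an order seen in 27% of all features. The excess of replicate 2 over the mean of the others was 0.85 on the log2 scale for ID1, 0.74 for ID3, 0.65 for TGFB2, 0.47 for SMAD6, 0.45 for SMAD7, 0.27 for ID2, 0.17 for BMP4, 0.082 for BMP2 and -0.0013 for TGFB1. The ID1 excess was above that of 99.7% of 12276 genes, and the ID2 excess above that of 90.4%. Across genes this excess moved with GC content, with a median of -0.15 for genes of up to 41.8% GC and 0.10 for genes above 56.4%. The log2 fold change between the lines moved with GC too, with medians of -0.21 and 0.09 in the same groups of genes. ID1, ID3, SMAD6 and SMAD7 had 57.2% to 58.9% GC, ID2, BMP2 and BMP4 52.1% to 54.0%, TGFB1 63.5% and TGFB2 38.9%. With offsets corrected for GC, the same 5 genes rose and the same 2 fell, and ID1 had a log2 fold change of 0.28 (edgeR adjusted p = 0.249). The part of the GC trend in the order of the libraries was not tested further.

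The E proteins are the partners that ID proteins bind. Of the 3 genes, TCF4 rose from 59.4 to 71.6 CPM (edgeR adjusted p = 0.0141), TCF12 fell from 113.6 to 89.2 CPM (edgeR adjusted p = 0.0119), and TCF3 was at 214.7 and 195.4 CPM (edgeR adjusted p = 0.167). None of these 3 calls held throughout: TCF4, at a log2 fold change of 0.27, did not pass without Huh7 P replicate 2 (0.24, edgeR adjusted p = 0.0760) or Huh7 LR replicate 3 (0.24, edgeR adjusted p = 0.0637), TCF12, at -0.35, had -0.20 with GC-corrected offsets (edgeR adjusted p = 0.0572) and -0.28 in limma on log2(FPKM + 0.1) (adjusted p = 0.0599), and TCF3 passed as lower with GC-corrected offsets (-0.23, edgeR adjusted p = 0.00676) and without Huh7 LR replicate 2 (-0.19, edgeR adjusted p = 0.0306). With GC-corrected offsets TCF4 had 0.50. The genes whose profile over the 6 libraries was closest to ID1, among 12275 compared by the root mean square distance of log2 CPM, were ANXA3 (0.111), NRP2 (0.117), HEPH (0.129), OPN3 (0.134) and OVOL2 (0.140). HEPH, which encodes the copper-dependent iron oxidase hephaestin, was at 69.5, 75.2 and 71.3 CPM in Huh7 P and at 57.9, 107.8 and 84.0 CPM in Huh7 LR.

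HAMP (ENSG00000105697, chr19:35280716-35285143, + strand), the hepcidin gene, had 0 counts and 0 FPKM in each of the 6 libraries. A count of 0 allows up to 3 counts, or 0.0418 to 0.0486 CPM, so a lower level was not detectable at this depth, and no change between the lines could be measured. In all, 3184 annotated genes were listed at 0 in every library, among them the BMP targets ATOH8 and MSX2. HAMP was listed at 0 although the hepatocyte markers ALB and APOA1 were abundant.

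Genes that control hepcidin were nonetheless measured, and 5 of the 11 tested rose and 1 fell, with a median log2 fold change of 0.36. Among all features 23.3% rose and 22.4% fell (45.7% in either direction). TMPRSS6, which encodes the protease matriptase-2 that lowers hepcidin by cleaving the BMP co-receptor hemojuvelin, was at 3.02, 3.92 and 3.18 CPM in Huh7 P and at 20.9, 27.2 and 26.7 CPM in Huh7 LR. All Huh7 LR libraries were far above those of Huh7 P. TMPRSS6 rose 7.40-fold (log2 fold change 2.89, SE 0.14, edgeR adjusted p = 1.97e-07). TFR2, which encodes the transferrin receptor 2 that takes part in iron sensing and in raising hepcidin, was at 2.65, 3.79 and 2.42 CPM in Huh7 P and at 20.6, 16.5 and 18.6 CPM in Huh7 LR. It rose 6.29-fold (log2 fold change 2.65, SE 0.17, edgeR adjusted p = 1.05e-06). Genes that act on hepcidin in opposite directions were thus both higher in Huh7 LR.

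HJV, which encodes hemojuvelin itself, was counted 11, 12 and 0 times in Huh7 P, compared with 20, 15 and 21 times in Huh7 LR, and did not pass (edgeR adjusted p = 0.195). HFE, the gene mutated in the most common hereditary haemochromatosis, fell from 17.8 ± 0.461 to 13.8 ± 1.29 CPM (SD, n = 3 each, edgeR adjusted p = 0.00842). In FPKM the HFE libraries overlapped, at 3.97, 4.07 and 3.36 in Huh7 P and at 2.96, 3.05 and 3.53 in Huh7 LR. STAT3, which carries the interleukin 6 signal to the HAMP promoter, was at 91.6, 94.1 and 85.4 CPM in Huh7 P and at 165, 171 and 166 CPM in Huh7 LR. It rose 1.85-fold (log2 fold change 0.89, SE 0.07, edgeR adjusted p = 2.89e-06). Its feedback inhibitor SOCS3 rose from 2.26 to 3.29 CPM (edgeR adjusted p = 0.0357), and the receptor gene IL6R rose from 41.2 to 52.8 CPM (edgeR adjusted p = 0.00248). FURIN, which encodes a protease that processes hepcidin, was at 309.6 and 304 CPM (edgeR adjusted p = 0.863). HFE, SOCS3, IL6R and FURIN were named after their values were seen.

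**Figure D4:**
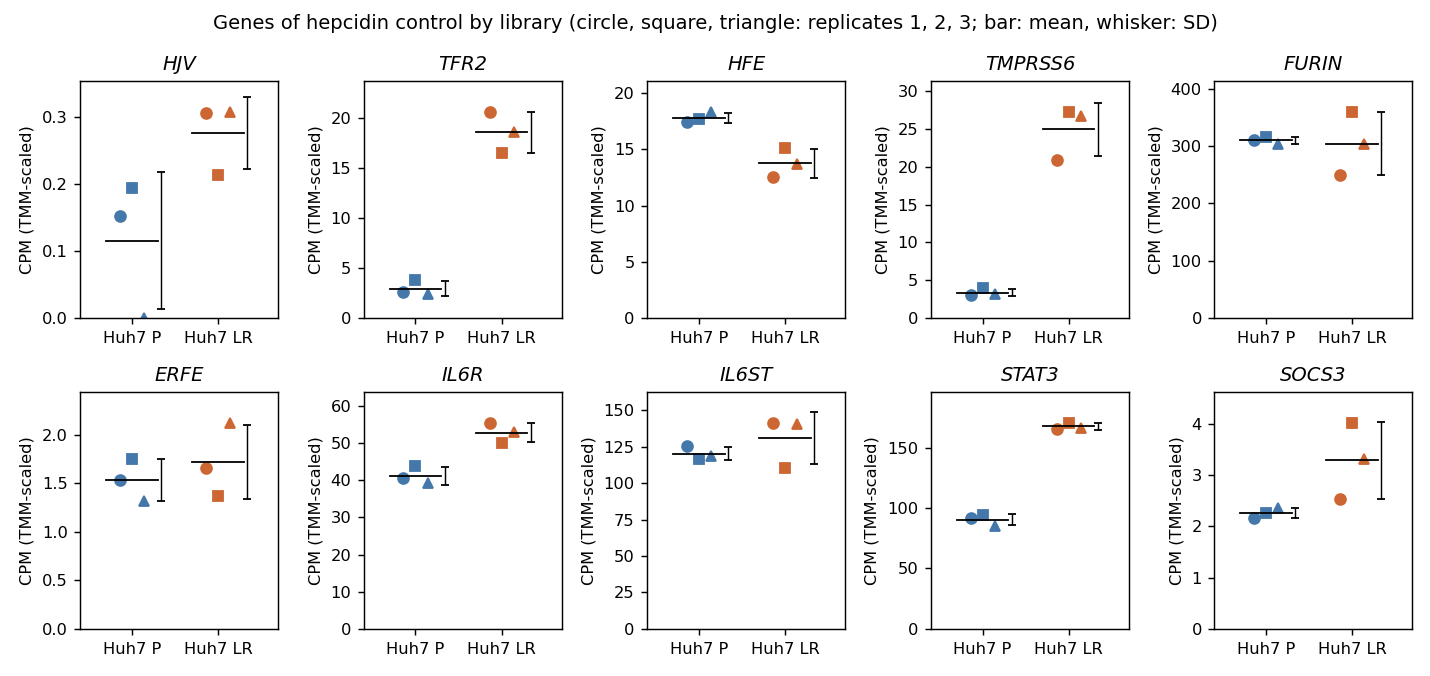
TMM-scaled CPM of 10 tested genes that control hepcidin in each of the 3 Huh7 P and 3 Huh7 LR libraries (points; bar, mean; whisker, SD). TMPRSS6 and TFR2 lie at 2.42 to 3.92 CPM in Huh7 P and at 16.5 to 27.2 CPM in Huh7 LR.

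Target genes of both branches were counted next. Of 13 BMP target genes, 10 were tested, and 5 rose (ID2, ID3, ID4, SMAD7 and SMAD9) and 0 fell by edgeR's test, with a median log2 fold change of 0.35. Of all features 23.3% rose and 22.4% fell (45.7% in either direction). ID1, SMAD6, BAMBI, HEY1 and MSX1 did not pass, and 6 of these 13 genes are among the 10 described above, so the count is not separate evidence. Of 12 TGFβ target genes, 11 were tested, and 7 rose and 1 fell, beside the same 23.3% and 22.4% of all features. Their median log2 fold change was 0.45, which is the value of SMAD7, a gene of both target lists and 1 of the 10 described above. TGFBI, an extracellular matrix gene, rose 2.94-fold, from 9.93 ± 0.478 to 29.2 ± 7.68 CPM (SD, n = 3 each, edgeR adjusted p = 2.10e-05), with Huh7 LR replicate 2 the highest at 37.9 CPM. CCN2, the connective tissue growth factor gene, rose 1.71-fold, from 78.5 ± 0.969 to 134.7 ± 15.6 CPM (SD, n = 3 each, edgeR adjusted p = 3.45e-05). CDKN1A, which encodes the cyclin-dependent kinase inhibitor p21, rose 2.02-fold, from 35.2 ± 1.86 to 71.0 ± 6.20 CPM (SD, n = 3 each, edgeR adjusted p = 4.39e-06). LTBP2 rose from 4.24 to 6.85 CPM (edgeR adjusted p = 8.06e-04). SPHK1, which encodes a sphingosine kinase, was the exception and fell from 66.6 ± 2.24 to 30.5 ± 4.78 CPM (SD, n = 3 each, edgeR adjusted p = 1.13e-05).

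**Figure D5:**
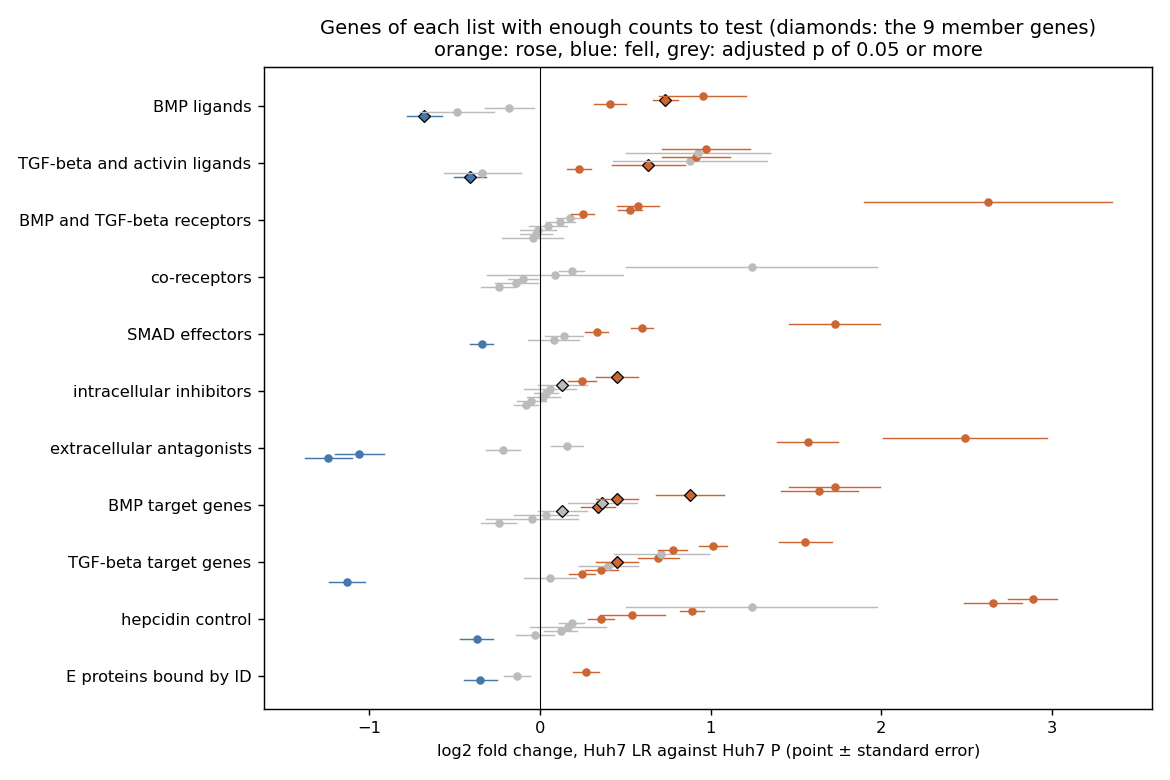
Log2 fold change (Huh7 LR over Huh7 P, edgeR) of the tested pathway genes, grouped by role, with standard errors, diamonds for the 9 members, and orange and blue for genes that rose and fell. TMPRSS6 (2.89) and TFR2 (2.65) lie furthest to the right and NBL1 (-1.24) furthest to the left.

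Over the 93 pathway genes that are not members, 68 were tested, of which 28 rose and 6 fell, with a median log2 fold change of 0.18. The same thresholds were passed by 23.3% of all features upwards and 22.4% downwards in that fit. With GC-corrected offsets 36 pathway genes rose and 8 fell, and the share of all features was not counted there. Without GC correction, beyond 2-fold at an adjusted p under 0.001, there were 7 higher (TFR2, TMPRSS6, SMAD9, ID4, CHRD, TGFBI and CDKN1A) and 3 lower (FST, NBL1 and SPHK1). That level was passed by 4.43% of all features upwards and 1.78% downwards.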

How the data were processed

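RNA from 3 Huh7 P and 3 Huh7 LR samples, described as independent, was sequenced by a company. The authors deposited 1 table with counts (whole reads per gene, not normalized) and FPKM (scaled by the authors for gene length and library size) for 26184 features, of which 19974 were annotated genes; 34 lines that named no gene were dropped. The submitters' processing notes name TopHat2, Cufflinks, DESeq and the mouse build mm10, and the extraction text names an insect, whereas all 19974 identifiers match human GENCODE release 29 (GRCh38), from which positions were taken. The use of strand in counting is not given in the sources used here.

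Counts were fitted in R 4.3.3 with edgeR 4.0.16 (filterByExpr with a minimum count of 10 and total of 15, TMM, quasi-likelihood test without robust estimation), and p-values were adjusted over 17531 features. CPM are scaled by TMM. P-values measure the spread between these samples of 1 line each. Alternatives used DESeq2 1.42.0, limma 3.58.1 on log2 FPKM with a pseudocount of 0.1 or 1 (genes that reached 0.5 FPKM in 3 libraries), other filters and size factors, a replicate block, each library left out, and GC-corrected offsets, the last added after the data were seen. The script was tested on simulated data. The members and lists were chosen with earlier results of these data known. Named genes are all members, list genes with an adjusted p under 0.05 and above 1.5-fold, all SMAD effectors and E proteins, and the 5 genes closest to ID1; other genes, such as GDF7, TGIF1 and BMPR2, were named after their values were seen. Intervals and the 3-count limit cover counting error or sample spread only.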

Additional observations from a re-analysis of the deposited data

How the results depend on the processing

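Over the alternatives, 35 single genes gave 462 values with the same direction and side of the threshold, 14 that no longer passed, 6 that newly passed and 2 that changed sign: SMAD6 to -0.030 without Huh7 LR replicate 2, and SMAD5 to -0.088 without Huh7 LR replicate 1. With 1 library left out, SMAD6 ranged from -0.030 to 0.29 and SMAD5 from -0.088 to 0.28. The number of the 9 tested members that rose was 3 to 6 with 1 library left out, 3 without Huh7 P replicate 1 and 6 without Huh7 LR replicate 1, and 2 fell in each of these fits. At an adjusted p under 0.01, 2 members rose and 2 fell, a level at which the share of all features was not counted. At an adjusted p under 0.001 and above 2-fold 0 members rose and 0 fell. Pathway genes that fell numbered 3 in limma on both log2 FPKM scales, and 6 to 8 with 1 library left out, while those that rose numbered 23 to 30; with GC-corrected offsets, chosen after the data were seen, 36 rose and 8 fell. Over all features, 776 were higher and 312 lower at the stricter threshold; limma on log2(FPKM + 1) gave 268 and 84, and leaving out 1 library gave 551 to 734 and 224 to 341. Fewer features and compressed low values enter the limma fits, and the part of either in these counts was not tested.

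Replicate numbers were not shown to pair the samples, since same-numbered libraries correlated at 0.037, 0.072 and 0.082 in their deviations from the group means, although each library correlated best with its own number. With the replicate block, 783 features were higher and 316 lower, 5 members rose and 2 fell. Depth limits what can be said of HAMP and of the pathway genes that were not tested. With 1 library left out, the calls on ID1, ID2, TGFB2, SMAD5, TCF3, TCF4 and AMHR2 changed in at least 1 fit. For ID2 and TCF4, and for TGFB2 without a Huh7 P library, the fold moved little in the fits that lost the call. For AMHR2 the log2 fold change ran from 2.01 to 3.27. Fewer samples entered each of these fits, and the part of sample number in the lost calls was not tested.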
